A study of Mus musculus with 6 samples.

Results

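PRC1.6 is a variant Polycomb repressive complex, and the 10 genes described here encode its DNA-binding, core and chromatin-reading subunits: Mga, Max, E2f6, Tfdp1, Pcgf6, Rybp, Yaf2, L3mbtl2, Cbx3 and Wdr5. They were chosen by name from what is known of the complex, not by a cut on their values, but with earlier results of these data known. All 10 had a row among the 22432 genes of the authors' deposited table. RNA had been sequenced from cultured mouse male germline stem cells, which self-renew on fibroblast feeders and correspond to the stem cells that maintain sperm production. The cells had been sorted into 2 populations, CDH1+/THY1+ and CDH1-/THY1+, by E-cadherin, a cell adhesion protein, and by THY1, a surface protein used to enrich these stem cells. Each population had 3 samples, at passage 6 to 8, 1 each from the cultures RP7 (8 weeks), RP5 (19 days) and WT1 (5 weeks). The strain was given as OCT4/GFP; Dox-OCT4 for RP7 and RP5 and as C57BL/6 for WT1, so that the WT1 culture differs from the others in strain as well as age. All samples were male, were grown on DR4 feeders in a medium with GDNF and FGF, and were depleted of ribosomal RNA before sequencing.

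In PRC1.6, PCGF6 pairs with the RING1 ubiquitin ligases that mark histone H2A, while the dimers MGA/MAX and E2F6/DP1 (the product of Tfdp1) bring the complex to DNA. MGA/MAX recognises the E-box and E2F6/DP1 the E2F site. The complex is known for keeping germline and meiotic genes silent in embryonic stem cells and somatic cells, and in the germline the same genes are expressed.

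The only values analysed here were those of the authors' comparison, without a value per library. Depth per sample, the spread within each population and the number of libraries that show a direction are therefore unknown. Over the 6 libraries the mean normalised counts in the authors' deposited table, which are reads scaled by the authors for library size, summed to 16900379. A fold change is given on the log2 scale as CDH1+/THY1+ over CDH1-/THY1+, with the standard error of the authors' test after ±, and a gene was called where the adjusted p of the authors' DESeq2 test was under 0.05. The direction rests on the name of the table, because Cdh1 had no row with which to check it. No row lay above a log2 fold change of 2.14, and 532 of 19743 tests had no row, so that the most strongly higher genes were not analysed here. Of 14 spermatogonial markers, 10 were lower in CDH1+/THY1+ cells (71.4%, against 16.4% of all genes with an adjusted p) and 0 higher in the authors' deposited table. Of 14 fibroblast markers, listed here for the feeder cells, 6 were higher and 0 lower. The share higher was 42.9%, against 17.1% of all genes and 21.6% of those with a mean count of at least 400, as all 14 had. Which cells gave the reads of these fibroblast genes was not measured. Of 6 tested Sertoli cell markers 0 were called, and of 6 leukocyte markers the 2 with a row, Ptprc and Cd68, were both higher in the authors' deposited table. The part of these cell types in the values below was not tested, and in sorted bulk samples fewer cells of a type and less RNA per cell cannot be told apart.

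Within the complex, the genes of the DNA-binding subunits MGA and E2F6 and of the scaffold WDR5 were lower in CDH1+/THY1+ cells, and Rybp was higher. Of the 10 genes, 3 were called lower, 1 higher and 6 not called in the authors' deposited table (40.0% called), with a median log2 fold change of -0.06. Of all 19211 genes with an adjusted p, 33.5% were called, 17.1% higher and 16.4% lower, and the median was 0.01 in the authors' deposited table. Of 7535 genes that reached a mean count of 400, as all 10 did, 45.0% were called. The share of called PRC1.6 genes was thus near that of genes at large. All 4 calls were also made at an adjusted p under 0.01, at which 23.0% of all genes were called, and under a Benjamini-Yekutieli adjustment, which called 16.3%. With a required change of at least 1.5-fold, 2 were called (E2f6 and Rybp), against 25.9% of all genes. None of the 10 changed by 2-fold or more.

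**Figure D1:**
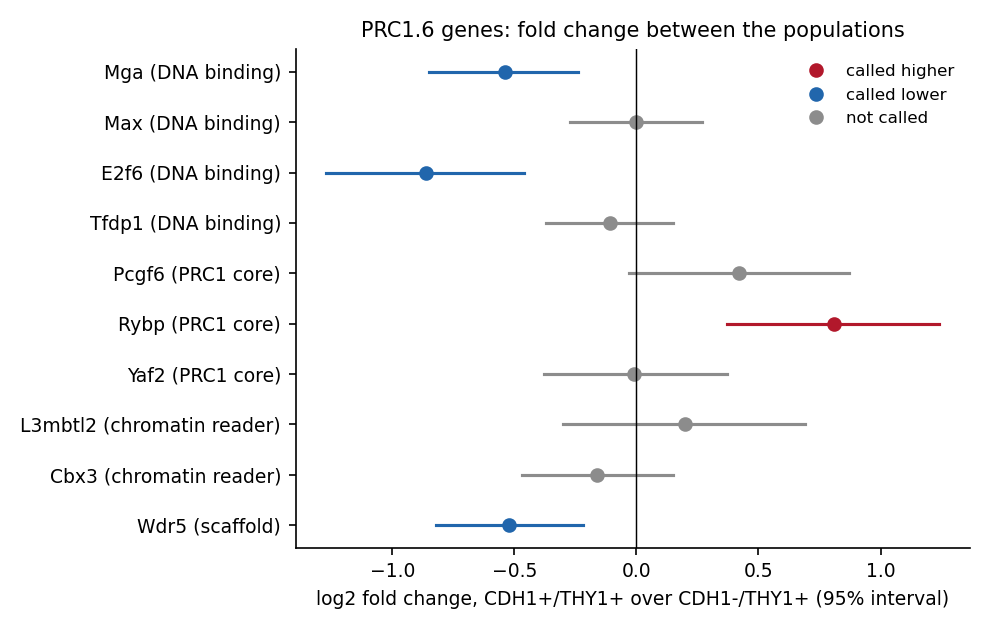
Log2 fold change of the 10 PRC1.6 genes, CDH1+/THY1+ over CDH1-/THY1+, in the authors' deposited table, with the role of each protein in brackets. Points are estimates and lines 95% intervals from the deposited standard errors. Mga, E2f6 and Wdr5 lie to the left of 0, Rybp to the right, and the intervals of the other 6 genes cross 0.

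E2f6, which encodes an E2F protein without the activation domain of its relatives, was the lowest of the 3 lower genes of the complex. Its log2 fold change was -0.86 ± 0.21 in the authors' deposited table (1.82-fold lower, adjusted p = 2.06e-04 by DESeq2), with a 95% interval from -1.27 to -0.46. The mean count of 997 and a fold change of -0.89, which is the deposited one with shrinkage towards 0 undone, give a level of about 700 normalised counts in CDH1+/THY1+ cells and 1294 in CDH1-/THY1+ cells, and the levels of the other called members were computed in the same way. E2f6 lies on chromosome 12, 16810963 to 16839742 in GRCm38. Tfdp1, the gene of its dimerisation partner, had -0.11 ± 0.13 in the authors' deposited table (adjusted p = 0.557 by DESeq2), with an interval from -0.37 to 0.15.

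Mga encodes a large scaffold protein with a T-box and a MAX-binding domain that nucleates PRC1.6. It had a log2 fold change of -0.54 ± 0.16 in the authors' deposited table (1.46-fold lower, adjusted p = 0.00258 by DESeq2), or about 4260 against 6249 normalised counts. Mga lies on chromosome 2, 119897228 to 119969581 in GRCm38. Max, the shared partner of MGA and of the MYC proteins, had a log2 fold change of 0.00 ± 0.14 in the authors' deposited table, with an interval from -0.27 to 0.27, which corresponds to levels from 0.830 to 1.21 times those of CDH1-/THY1+ cells. In each of the DNA-binding dimers, 1 partner was thus called lower and the other was not called. The difference between partners was not tested, because their values come from the same libraries and their shared error is unknown.

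Pcgf6, which defines the complex among the PRC1 variants, was without a call at 0.42 ± 0.23 in the authors' deposited table (adjusted p = 0.150 by DESeq2). Its interval, -0.03 to 0.87, was wide, and its standard error was above that of 84.0% of the 200 genes nearest in mean count. This was not particular to Pcgf6, since the same share was 92.0% for L3mbtl2, 87.0% for Rybp and 82.5% for E2f6. Rybp encodes a protein that binds RING1 proteins and stimulates their activity, and Yaf2 its close relative, which takes the same place in the complex. Rybp had 0.81 ± 0.22 in the authors' deposited table (1.75-fold higher, adjusted p = 0.00142 by DESeq2, interval 0.37 to 1.24), or about 1477 against 828 normalised counts. Yaf2 had -0.01 ± 0.19 in the authors' deposited table, with an interval from -0.38 to 0.37. The intervals of Rybp and Yaf2 meet end to end, and the difference between the paralogs was not tested. Rybp lies on chromosome 6, 100228565 to 100287485 in GRCm38, and has 1 pseudogene named after it in GENCODE M21 that could share reads.

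Among the chromatin-binding subunits, Wdr5 was called. WDR5 is a scaffold that PRC1.6 shares with the COMPASS complexes, which methylate histone H3. The log2 fold change of Wdr5 was -0.52 ± 0.15 in the authors' deposited table (1.43-fold lower, adjusted p = 0.00358 by DESeq2, interval -0.82 to -0.22), or about 3245 against 4678 normalised counts. It lies on chromosome 2, 27515157 to 27536535 in GRCm38. L3mbtl2, whose protein carries MBT domains, had 0.20 ± 0.25 in the authors' deposited table, the largest standard error of the 10 genes. The 3' end of L3mbtl2 overlaps the antisense gene Chadl over 1023 of 5945 exon bases in GENCODE M21, and whether the authors' counting used strand is not given in the sources used here. Cbx3, the gene of the heterochromatin protein HP1 gamma, had -0.16 ± 0.16 in the authors' deposited table, and has 8 pseudogenes of its name in GENCODE M21 with which reads could be split. Of the 6 genes not called, 4 (Max, Tfdp1, Cbx3 and Yaf2) had intervals that lay within a 1.5-fold change in either direction.

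Per length, the complex fell into genes of high and of moderate level. Over all 6 libraries and per kb of exon, Wdr5 had a mean count of 1102, Cbx3 of 1010 and Tfdp1 of 840 in the authors' deposited table, at or above the 94.8th percentile of protein-coding genes with a row. Mga followed with 343 per kb, L3mbtl2 and Rybp with 243 each and Yaf2 with 230 in the authors' deposited table. Max had 200, E2f6 176 and Pcgf6 145 per kb, the last at the 66.0th percentile. The highest and lowest levels differed 7.61-fold. Wdr5, Cbx3 and Tfdp1, whose products also serve other complexes, thus stood above Mga, L3mbtl2, E2f6 and Pcgf6, by which PRC1.6 is defined. Max, whose product also pairs with the MYC proteins, stood below Mga and L3mbtl2. A product shared with other complexes thus did not go with a high level throughout. The order of close neighbours has no spread over libraries against which to judge it.

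**Figure D2:**
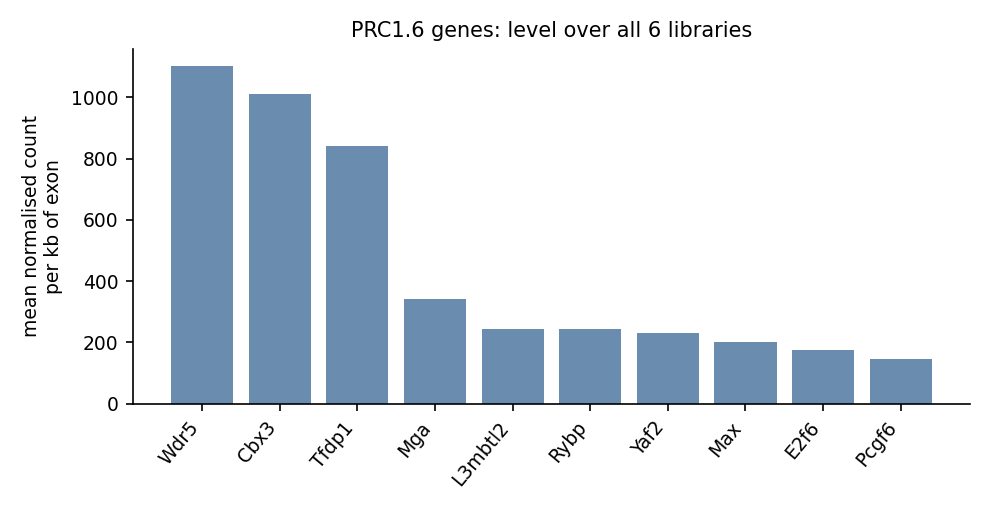
Mean normalised count per kb of exon for the 10 PRC1.6 genes, over all 6 libraries, from the authors' deposited table and GENCODE M21 exon lengths. Bars are single values without an error; Wdr5, Cbx3 and Tfdp1 stand at 840 to 1102, the other 7 genes at 145 to 343.

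The catalytic partners of the complex moved in both directions. Of 6 genes for the RING1 ligases and for enzymes copurified with E2F6 or PCGF6, 2 were higher and 2 lower in the authors' deposited table, with a median of -0.01. The share called was 66.7%, against 33.5% of all genes and 44.3% of those with a mean count of at least 100. Ehmt2, which encodes the histone H3 lysine 9 methyltransferase G9a, had -0.84 ± 0.16 in the authors' deposited table (adjusted p = 2.01e-06 by DESeq2), and its partner Ehmt1 had -0.28 ± 0.14 without a call. Of the histone deacetylase genes, Hdac1 rose to 0.61 ± 0.19 and Hdac2 fell to -0.40 ± 0.14 in the authors' deposited table. Of the RING1 ligase genes, Rnf2 rose to 0.34 ± 0.14 (adjusted p = 0.0442 by DESeq2), a call lost at an adjusted p under 0.01, and Ring1 had 0.27 ± 0.21 in the authors' deposited table.

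Relatives of PRC1.6 subunits, which act in other complexes, included genes with changes of over 2-fold. The HP1 genes Cbx1 and Cbx5 rose to 1.31 ± 0.20 and 1.12 ± 0.16 in the authors' deposited table (adjusted p = 1.86e-09 and 3.26e-10 by DESeq2), with intervals of 0.92 to 1.71 and 0.79 to 1.44 that do not meet that of Cbx3, -0.47 to 0.15. The differences between these HP1 genes were not tested, since their values come from the same libraries. Of the MBT genes, L3mbtl3 rose to 0.93 ± 0.19, while Sfmbt1 (-1.40 ± 0.20) and Sfmbt2 (-1.10 ± 0.28) were lower in the authors' deposited table. L3mbtl4 fell to -2.49 ± 0.57 at a mean count of 16.0 in the authors' deposited table. Not called were L3mbtl1, at -0.79 ± 0.48 with a mean count of 16.7, and Mbtd1, at -0.22 ± 0.18. Of 8 E2F and DP genes other than the members, 2 were higher and 1 lower (37.5% called, near the 33.5% of all genes). E2f4, a repressor E2F that acts with pocket proteins, rose to 1.29 ± 0.20 (adjusted p = 4.45e-09 by DESeq2), E2f8 rose to 0.90 ± 0.25 and E2f1 fell to -0.42 ± 0.15 in the authors' deposited table. Tfdp2, the other DP gene, had -0.21 ± 0.15 in the authors' deposited table.

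Among 11 genes of the MAX and MLX network, which compete or cooperate at E-boxes, 1 was higher and 3 lower in the authors' deposited table. The share called, 36.4%, was near the 33.5% of all genes. Myc rose to 1.01 ± 0.26 (adjusted p = 5.48e-04 by DESeq2) at a mean count of 137, and Mycl fell to -0.95 ± 0.33 in the authors' deposited table. Mycn, at 334 per kb of exon against 50.3 for Myc and 92.8 for Mycl, had no call at -0.13 ± 0.29 in the authors' deposited table. The lower genes Mlxip and Mlxipl, at -0.67 ± 0.18 and -1.06 ± 0.33 in the authors' deposited table, encode MLX partners that respond to glucose. Of 9 COMPASS genes that share WDR5, 1 was higher and 3 lower in the authors' deposited table. The share called was 44.4%, against 33.5% of all genes, and was near the 44.3% of those with a mean count of at least 100. Dpy30, a core subunit, rose to 0.66 ± 0.23 (adjusted p = 0.0147 by DESeq2), a call lost at an adjusted p under 0.01. The methyltransferase genes Kmt2c (-0.92 ± 0.13), Setd1a (-0.78 ± 0.18) and Kmt2a (-0.52 ± 0.16) were lower in the authors' deposited table.

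The other PRC1 genes, which encode the canonical complexes and the variants built on other PCGF proteins, had 11 lower and 4 higher of 27 in the authors' deposited table (55.6% called, median -0.18), against 33.5% called of all genes and 44.3% of the 11133 whose mean count reached 100, as that of all 27 did. The strongest lower statistics were those of Cbx2 (-1.25 ± 0.15), Scml2 (-1.58 ± 0.19), Bcorl1 (-1.37 ± 0.18) and Pcgf5 (-1.09 ± 0.17) in the authors' deposited table. Cbx2 encodes a chromobox subunit of canonical PRC1, Scml2 a germline PRC1 partner, Bcorl1 a relative of the PCGF1 partner BCOR, and Pcgf5 another PCGF protein. The 4 higher genes were Cbx7 (1.59 ± 0.25), Phc3 (0.63 ± 0.19), Phc1 (0.65 ± 0.24) and Cbx6 (0.45 ± 0.17) in the authors' deposited table, of which Cbx7 encodes the chromobox protein of pluripotent cells. Skp1a, the most abundant of the list by mean count, had no call at -0.28 ± 0.13 in the authors' deposited table.

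**Figure D3:**
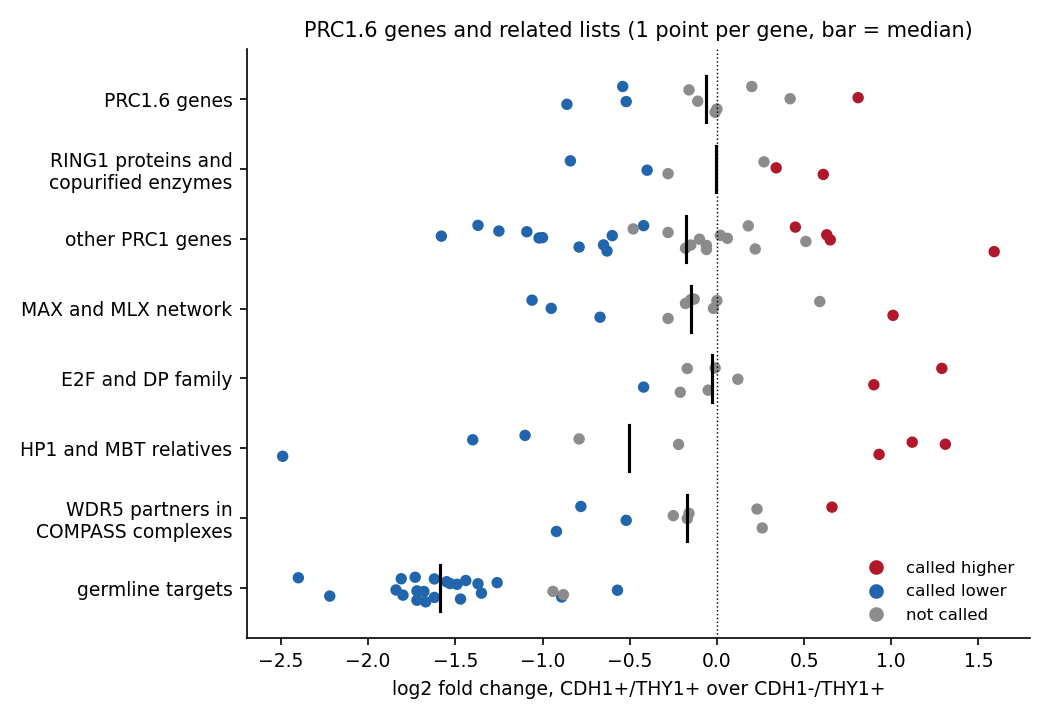
Log2 fold change in the authors' deposited table for the PRC1.6 genes and 7 related lists, 1 point per gene, coloured by call, with a bar at the median of each list; vertical scatter is only for legibility. The PRC1.6 genes lie between -0.86 and 0.81, other PRC1 genes between -1.58 and 1.59, and all 24 germline targets lie below 0.

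The germline genes that PRC1.6 or E2F6 is known to silence outside the germline were lower almost throughout. Of 24 such genes, 22 were lower, 0 higher and 2 not called in the authors' deposited table, with a median log2 fold change of -1.58. Of these, 20 were lower by at least 2-fold, against 6.54% of all tested genes. The piRNA helicase gene Mov10l1 had -1.84 ± 0.16, and Dazl, an RNA-binding protein gene and the most abundant of the list by mean count (14797), had -1.53 ± 0.21 in the authors' deposited table. The list was drawn up with the lower level of germ cell genes in these samples already known, and it shares Ddx4 and Dazl with the spermatogonial markers, so it is no independent evidence of that direction. At the ends of the range stood Mei1, needed for meiotic breaks, at -2.40 ± 0.31, and Meioc, needed for meiotic prophase, at -0.57 ± 0.23 in the authors' deposited table. The genes not called were Stra8, a retinoic acid-induced regulator of meiotic entry, at -0.88 ± 0.39 (adjusted p = 0.0632 by DESeq2), and Majin, at -0.94 ± 0.47 (adjusted p = 0.105 by DESeq2) with a mean count of 18.0 in the authors' deposited table.

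Promoters of some of these targets are shown, chosen because they carry motifs of the complex's DNA-binding dimers. Of the targets with a promoter entry, 6 held neither motif and are not shown. Each stretch below is the 150 bases before the transcript start of a RefSeq gene model (GRCm38.p6, strand in brackets), 5′ to 3′, with capitals at each CACGTG, the E-box, and each TTCCCGC on either strand (GCGGGAA on the strand shown), the E2F motif. The first 3 hold both motifs, the next 4 an E-box and the last 3 an E2F motif.
Ddx4, chr13:112652311-112652460 (-): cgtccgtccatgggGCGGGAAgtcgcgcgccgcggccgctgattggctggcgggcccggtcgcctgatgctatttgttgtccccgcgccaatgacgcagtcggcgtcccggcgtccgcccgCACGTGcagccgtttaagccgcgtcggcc
Sycp3, chr10:88459437-88459586 (+): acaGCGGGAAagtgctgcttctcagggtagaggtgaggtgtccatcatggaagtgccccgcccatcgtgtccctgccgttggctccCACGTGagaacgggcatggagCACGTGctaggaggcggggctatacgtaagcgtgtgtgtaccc
Hormad1, chr3:95559527-95559676 (+): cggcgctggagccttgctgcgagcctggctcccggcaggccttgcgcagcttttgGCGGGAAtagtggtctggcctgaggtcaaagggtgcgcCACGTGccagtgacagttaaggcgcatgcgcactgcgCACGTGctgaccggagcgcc
Tdrd1, chr19:56826059-56826208 (+): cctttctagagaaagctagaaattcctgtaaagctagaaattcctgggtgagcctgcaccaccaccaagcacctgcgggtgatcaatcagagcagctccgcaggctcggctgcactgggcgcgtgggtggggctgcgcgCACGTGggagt
Stk31, chr6:49395389-49395538 (+): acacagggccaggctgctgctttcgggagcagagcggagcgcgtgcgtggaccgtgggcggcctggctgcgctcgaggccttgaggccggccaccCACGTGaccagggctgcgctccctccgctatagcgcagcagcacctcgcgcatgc
Taf7l, chrX:134476491-134476640 (-): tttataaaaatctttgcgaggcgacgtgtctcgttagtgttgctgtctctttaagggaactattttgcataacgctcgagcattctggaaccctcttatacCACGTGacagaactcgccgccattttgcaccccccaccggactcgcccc
Slc25a31, chr3:40708721-40708870 (+): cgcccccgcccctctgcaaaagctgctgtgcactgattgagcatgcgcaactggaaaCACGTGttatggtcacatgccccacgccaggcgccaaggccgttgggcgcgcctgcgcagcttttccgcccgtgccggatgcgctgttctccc
Smc1b, chr15:85131958-85132107 (-): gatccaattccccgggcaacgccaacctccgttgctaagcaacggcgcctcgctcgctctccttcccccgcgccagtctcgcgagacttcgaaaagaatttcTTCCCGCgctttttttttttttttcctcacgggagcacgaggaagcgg
Tuba3a, chr6:125286082-125286231 (-): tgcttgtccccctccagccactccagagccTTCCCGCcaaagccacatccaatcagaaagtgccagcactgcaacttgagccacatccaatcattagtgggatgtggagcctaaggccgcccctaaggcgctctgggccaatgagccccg
Tuba3b, chr6:145615813-145615962 (+): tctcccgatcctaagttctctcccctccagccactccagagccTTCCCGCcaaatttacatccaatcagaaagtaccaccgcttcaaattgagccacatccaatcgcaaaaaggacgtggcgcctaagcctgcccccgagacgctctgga

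Most target promoters held 1 or both motifs. In windows from 250 bases before to 50 after the start, 21 of the 24 targets matched an entry, of which 11 held an E-box (52.4%), 9 an E2F motif (42.9%) and 5 both (23.8%). Counted in the same way, over any promoter of a gene, 8.09% of all 27025 genes with an entry held an E-box, 5.29% an E2F motif and 0.514% both. Of all 32851 single promoters of the same length, the shares were 7.15%, 4.60% and 0.457%. The targets were listed as genes silenced by PRC1.6 or E2F6, whose dimers bind these motifs. Their higher shares are thus no independent evidence of that link. The E-box is palindromic and was counted once. In Sycp3, which encodes a lateral element protein of the synaptonemal complex, E-boxes began 64 and 43 bases before the start and the E2F motif 147 before it. Hormad1, a meiotic chromosome axis gene, held E-boxes at 57 and 20 bases and an E2F motif at 95 bases before the start. Ddx4, the germ cell RNA helicase gene, held an E-box at 29 bases and an E2F motif at 136 bases before the start. Slc25a31, a mitochondrial carrier gene of male germ cells, held its E2F motif after the start, at base 20. A match of letters is a description and not a site at which a factor was measured.

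Targets with both motifs overlapped in fold change with those with an E-box alone and with those with an E2F motif alone, while all 6 with an E-box alone were lower than all 4 with an E2F motif alone. The 95% intervals of neighbours in that order, Taf7l (-2.04 to -1.19) and Tuba3b (-1.96 to -1.02), overlapped in the authors' deposited table, and the differences between motif groups were not tested. Those with both motifs were Ddx4 (-1.73 ± 0.17), Slc25a31 (-1.81 ± 0.21), Sycp3 (-1.68 ± 0.19), Stag3 (-1.35 ± 0.21) and Hormad1 (-0.89 ± 0.17) in the authors' deposited table. Those with an E-box alone ran from -2.22 ± 0.20 for Tdrd1, a piRNA granule gene, to -1.62 ± 0.22 for Taf7l, a germ cell form of a general transcription factor subunit, in the authors' deposited table. Those with an E2F motif alone were the tubulin genes Tuba3a (-1.47 ± 0.22) and Tuba3b (-1.49 ± 0.24), the meiotic cohesin gene Smc1b (-1.26 ± 0.18) and Meioc, in the authors' deposited table. Tuba3a and Tuba3b are near-identical copies between which the counting could have split reads. Those with neither motif ran from -2.40 ± 0.31 for Mei1 to -0.88 ± 0.39 for Stra8 in the authors' deposited table. Between them stood Tex101 (-1.72 ± 0.17), Zcwpw1 (-1.55 ± 0.15), Dazl (-1.53 ± 0.21) and Tdrkh (-1.44 ± 0.19). Targets without a motif thus spanned the whole range of those with an E-box alone.

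**Figure D4:**
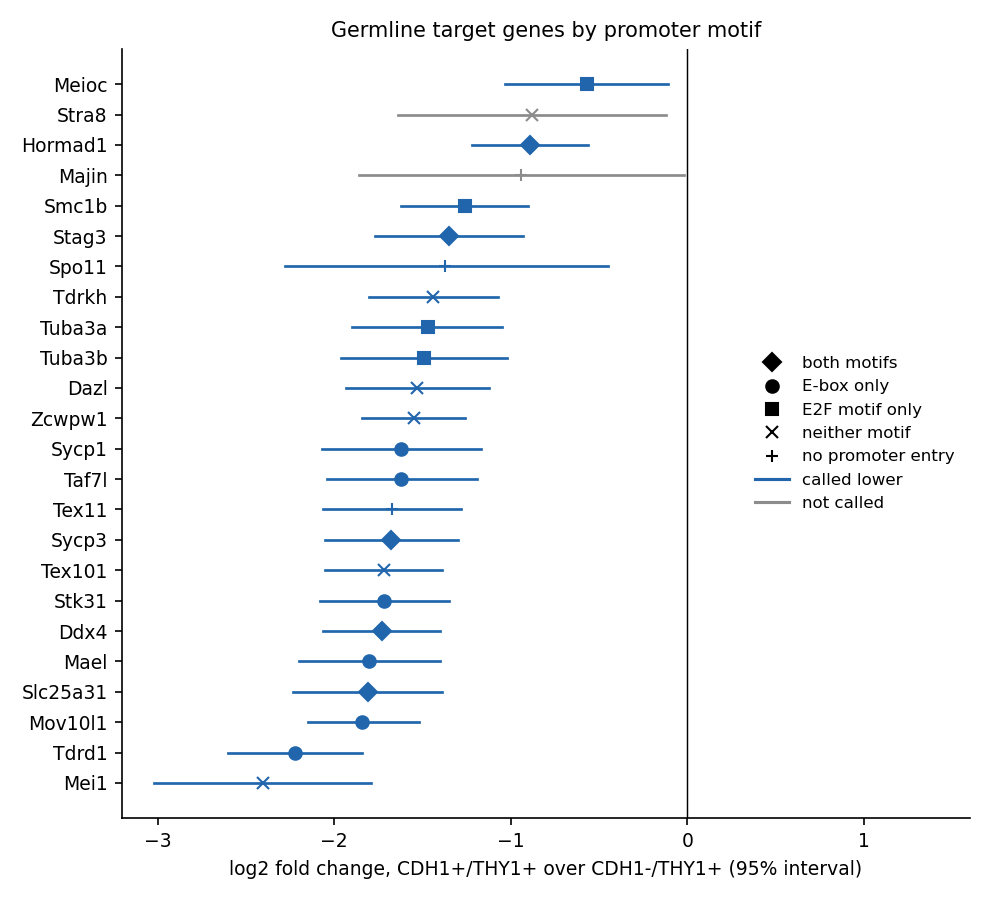
Log2 fold change of the 24 germline targets, CDH1+/THY1+ over CDH1-/THY1+, in the authors' deposited table, with 95% intervals; the symbol gives the motifs of the promoter and the colour the call. All estimates lie below 0, from -2.40 for Mei1 to -0.57 for Meioc, and the 6 targets with an E-box alone (-2.22 to -1.62) lie below the 4 with an E2F motif alone (-1.49 to -0.57). Targets with neither motif run from -2.40 to -0.88.

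Calls were also counted over all genes by the motifs of their promoters, a comparison added after the values of the targets were seen. Of 115 tested genes whose promoter held both motifs, 35 were lower (30.4%) and 19 higher (16.5%) in the authors' deposited table, against 18.8% and 18.9% of all 12729 tested genes with a promoter entry. Without the target list, 30 of 110 were lower (27.3%). Any E-box gave 24.9% lower of 1424 genes, and any E2F motif 22.0% of 1166 in the authors' deposited table. Genes with neither motif had 17.7% lower. Median fold changes differed little, at -0.07 for both motifs and 0.03 for neither. Genes with motifs were also more abundant, with a median mean count of 528 for both motifs and 304 for neither. Of the more abundant genes, with a mean count from 400, 29.2% of 65 with both motifs were lower in the authors' deposited table, against 23.7% of all 5957. Without the target list that share was 23.3% of 60 genes, close to all genes, so for abundant genes the excess with both motifs lay within the list. An E-box without the target list had 28.8% of 781 abundant genes lower in the authors' deposited table. Outside the list, the smallest adjusted p among lower genes with both motifs were those of the synaptonemal complex gene Tex12 (-1.71 ± 0.25) and of Scaper (-1.09 ± 0.16), and among higher ones those of Klhl22 (1.06 ± 0.14) and Morf4l2 (0.80 ± 0.13) in the authors' deposited table. These 4 were chosen after their values were seen.

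**Figure D5:**
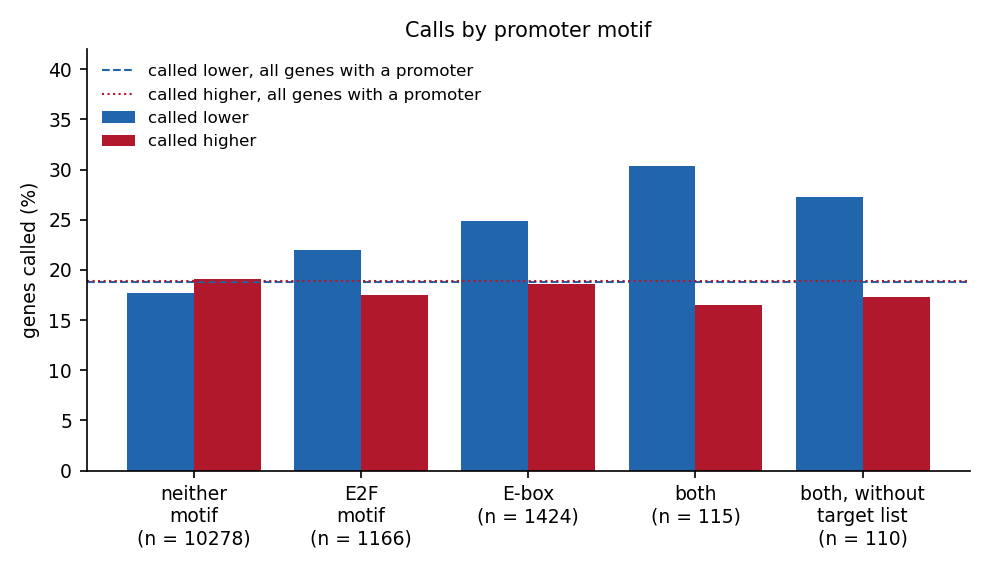
Percent of tested genes called lower (blue bars) and higher (red bars) in CDH1+/THY1+ cells, by motif in the promoter window, with dashed and dotted lines for all genes with a promoter entry. The blue bar is 17.7% without either motif and 30.4% with both, while the red bars stay between 16.5% and 19.1%.

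Of the 8 PRC1.6 genes with a promoter entry, 2 held an E-box (25.0%, against 8.09% of all genes with an entry), Max at 3 bases and Tfdp1 at 231 bases before the start, and 0 held the E2F motif. Neither Max nor Tfdp1 was called in the authors' deposited table.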

How the data were processed

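RNA was measured in 6 libraries, and the file analysed was 1 table of the authors' own comparison, with 1 row per Ensembl gene. Trimming was by Trimmomatic 0.32, alignment by TopHat2 2.1.1 to GRCm38.p4, counting by featureCounts (Subread 1.5.0-p3) and testing by DESeq2 1.12.3 under R 3.3.1, per the submitters' processing notes, which name the tools without their order; the annotation, counting settings and model formula are not given in the sources used here. Per the file headers, the authors deposited a mean normalised count (a signal that is never negative), a log2 fold change with its standard error, a Wald statistic (a score), a p-value and an adjusted p-value. Standard errors peaked at 0.639 near a mean count of 3 to 4 (median 0.637) and were lower at a count of up to 1 (median 0.541), as with fold changes shrunken towards 0. Undoing such shrinkage moved the fold changes of the 10 genes by at most 4.18%.

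Symbols, positions and union exon lengths came from GENCODE M21, joined by Ensembl identifier with the version removed, and were found for 22317 rows and not for 115. No model was fitted. Intervals are the estimate ± the normal quantile times the deposited standard error. Levels in each population were worked out from the mean count and the fold change with shrinkage undone, and are approximate. The number of tests, 19743, was recovered from the ratio of adjusted p to p. Promoters were RefSeq windows, searched as text. Named were all 10 genes, any gene of lists of up to 11, and of longer lists the called genes with the 4 lowest and 4 highest statistics and the most abundant gene; target genes beyond these were named for their motif, as an end of the range or as not called. The members and lists were chosen with earlier results of these data known. Adjustment and the undoing of shrinkage were tested on simulated data, and the motif search on a short made-up sequence. Python 3.11.15, pandas 2.3.3 and scipy 1.17.1 were used. Where nothing says that samples came from separate animals, p-values measure the spread between these samples. Whether the authors' model took differences between the cultures out of that spread is not given.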

Additional observations from a re-analysis of the deposited data

How the results depend on the processing

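Of 64 counts of calls recomputed for the 8 lists under 8 alternatives, 58 stayed within 1.5 times the count given above and 6 did not. The alternative with shrinkage undone kept the deposited adjusted p, so it could not move any call. A required change of at least 1.5-fold left 2 of the 4 PRC1.6 genes, E2f6 and Rybp, since Mga and Wdr5 changed by less, and 2 of the 4 called RING1 and copurified genes. An adjusted p under 0.01 left 2 of those 4. A Benjamini-Yekutieli adjustment left 1 of those 4, 2 of the 4 called MAX and MLX network genes and 2 of the 4 called COMPASS genes. It left all 4 PRC1.6 calls (adjusted p = 0.00295 for E2f6, 0.0199 for Rybp, 0.0356 for Mga and 0.0492 for Wdr5) and 20 lower germline targets. Of 80 fold changes of the 10 genes, 78 kept their side of the threshold, and the other 2 are Mga (-0.54) and Wdr5 (-0.52) under the 1.5-fold minimum. Centring subtracted the median of all genes (0.01) or of those with a mean count of at least 1000 (-0.04). Of the uncalled values near 0, that of Max went from 0.00 to -0.01 with the first and that of Yaf2 from -0.01 to 0.03 with the second. Alternatives chosen after seeing the data gave, for promoters with both motifs, 27.2% lower with motifs only before the start and 29.2% at mean counts from 400, where an E-box had 29.8% and an E2F motif 25.0%. No paired analysis was possible because the table holds no value per library, so leaving out a library could not be run either, and what 1 library contributes to any call is unknown. The 532 tests without a row make the background counts incomplete on the higher side.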
